A study of Mus musculus with 4 samples.

Results

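The genes of the colony-stimulating factors and of their receptors were read in RNA-seq libraries of mouse myeloid cells with and without a conditional deletion of PD-1. They were the 7 rows named Csf1, Csf3, Csf1r, Csf2ra, Csf2rb, Csf2rb2 and Csf3r, chosen by symbol among the 24706 genes of the files, so that 2 genes encode a factor and 5 encode a receptor chain. The series held 4 libraries, 2 labelled wt and 2 labelled cko. Both groups carry the floxed Pdcd1 allele by the study's account of its crosses (PD-1f/f), although its RNA-seq methods call the controls wild-type. The cko mice (PD-1f/f; LysM-Cre) also carry Cre under the control of the lysozyme locus, which is active in neutrophils, monocytes and macrophages rather than in one cell type. The pups were at P2 by the methods and P3 by the results, the cells are described once as CD11b+ cells sorted from liver and once as RNA of fetal livers, and sex, litter and pooling of animals are not given in the sources used here. Nothing in the labels says that replicates came from separate animals, so that p-values measure the spread between these libraries.

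Colony-stimulating factors are secreted proteins that keep myeloid cells alive, drive their progenitors to divide and set the branch along which they mature. M-CSF (Csf1) acts on a receptor tyrosine kinase (Csf1r) of monocytes and macrophages, which also binds IL-34. G-CSF (Csf3) acts on Csf3r of the neutrophil lineage, and GM-CSF (Csf2) acts on a pair of chains, a specific alpha chain (Csf2ra) and the common beta chain (Csf2rb), which is shared with the receptors of IL-3 and IL-5. Mice also have Csf2rb2, a beta chain that serves IL-3 only. The receptors without a kinase domain signal through JAK kinases and STAT factors, with SOCS proteins as their brakes.

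Receptor transcripts stood above those of the factors, except that Csf1 exceeded Csf2rb2 in cko replicate 2, and the genes differed in how far the groups stood apart. Csf2rb, the common beta chain, was 1.88-fold as high in cko as in wt by mean FPKM, and both cko libraries lay close together. Csf3r and Csf2rb2 were 1.51-fold and 1.57-fold as high. They too rose more in cko replicate 2 (1.73-fold and 1.77-fold the wt mean) than in cko replicate 1 (1.28-fold and 1.38-fold). Csf1 was 7.06-fold and Csf1r 2.15-fold as high, and in both genes most of the difference came from cko replicate 2. Csf2ra did not separate the groups, and Csf3 was close to the limit of detection.

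The libraries held 17691505 to 22212407 counted reads, worked out from the FPKM values, which give reads per length of gene and depth of library. Pdcd1, the deleted gene, stood at 28.5 and 34.7 FPKM in wt and 17.1 and 21.4 FPKM in cko, a log2 difference of -0.69 (standard error 0.19, adjusted p = 0.218 from limma), so its transcripts remained in both cko libraries. Lyz2, whose locus carries the Cre, stood at 31306 and 32147 FPKM in wt and 10422 and 8127 FPKM in cko, a log2 difference of -1.79 (standard error 0.18). Ptprc, the pan-leukocyte gene, had 58.1 to 75.1 FPKM, and the principal Itgam row (CD11b) had 48.5 to 54.3 FPKM. The summed markers of no other cell type were at 0, and Cd3e of T cells had at most 0.0523 FPKM. Y-linked transcripts were high in 1 library only, wt replicate 2, where Ddx3y had 24.9 FPKM against at most 0.00866 FPKM elsewhere. Xist had 0.0119 FPKM in wt replicate 2, 4.91 FPKM in wt replicate 1 and 6.67 and 7.98 FPKM in cko. By these transcripts sex differed between the wt libraries, and the male library was a control.

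Sequence bears on these genes in 2 ways. The first is how far reads can tell the beta chains apart. Csf2rb lies at chr15:78325990-78351000 on the plus strand and Csf2rb2 at chr15:78282517-78305603 on the minus strand of the same chromosome (positions of the files, GRCm38). Their coding sequences in GENCODE M21, of 2691 and 2637 bases, were identical at 95.2% of 2631 aligned positions, and the longest identical run was 242 bases. Of all stretches of 50 bases in the Csf2rb2 coding sequence, 26.5% also occur in the Csf2rb coding sequence, and of those of 100 bases 11.3% do. The transcripts of Csf2rb and Csf2rb2 have 4764 and 4740 bases, and their parts outside the coding sequence were not compared. The stretch of 60 coding bases within 1 exon that differs most is shown to make clear where reads are distinctive, with the 13 differing bases in capitals. It lies at chr15:78338893-78338952 (plus strand) in Csf2rb and chr15:78294379-78294438 (minus strand) in Csf2rb2.
Csf2rb: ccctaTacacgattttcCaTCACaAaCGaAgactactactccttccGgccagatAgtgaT
Csf2rb2: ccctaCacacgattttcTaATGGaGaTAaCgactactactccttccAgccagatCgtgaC
How reads that match both genes were assigned is not given in the sources used here, and each of the pair is therefore also read as a sum.

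The second is the promoter. RefSeq promoters (GRCm38.p6) were matched for 4 of the 7 genes, and the 250 bases before the RefSeq start were searched. Those of Csf1, Csf2rb2 and Csf2ra are printed because the first 2 genes were higher in both cko libraries while Csf2ra was not. Capitals mark matches, on either strand, to the NF-κB consensus, to GAGGAA (core of the PU.1 site), TTGCNNAA (C/EBP), TGANTCA (AP-1) or TTCNNNGAA (STAT). The window of Csf1 is chr3:107760470-107760719, that of Csf2rb2 chr15:78305722-78305971 and that of Csf2ra chr19:61228419-61228668, all on the minus strand. The last 11 bases of the Csf2ra window lie in a longer GENCODE M21 form of the gene, and most of its capitals fall there. The window of Csf3r, chr4:126024409-126024658 on the plus strand, has 109 bases inside the annotated gene and is not printed.
Csf1: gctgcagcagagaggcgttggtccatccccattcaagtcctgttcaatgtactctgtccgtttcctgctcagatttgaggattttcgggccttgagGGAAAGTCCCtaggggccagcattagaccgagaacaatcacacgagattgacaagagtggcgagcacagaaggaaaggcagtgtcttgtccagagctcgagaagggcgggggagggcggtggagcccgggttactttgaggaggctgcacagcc
Csf2rb2: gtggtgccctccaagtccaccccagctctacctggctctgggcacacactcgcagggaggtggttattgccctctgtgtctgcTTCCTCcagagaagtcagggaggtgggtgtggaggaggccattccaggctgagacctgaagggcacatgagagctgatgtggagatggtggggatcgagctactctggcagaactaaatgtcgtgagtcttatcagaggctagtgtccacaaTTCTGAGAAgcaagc
Csf2ra: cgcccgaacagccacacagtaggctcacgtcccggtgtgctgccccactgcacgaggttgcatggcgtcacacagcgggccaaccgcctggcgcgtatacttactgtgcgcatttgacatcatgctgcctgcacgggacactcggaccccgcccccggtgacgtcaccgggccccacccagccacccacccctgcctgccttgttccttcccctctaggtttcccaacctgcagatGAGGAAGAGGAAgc
Csf1 held 1 match to the NF-κB consensus, 154 to 145 bases before the start, a motif found in 3.90% of the 32851 mouse promoter windows of this length. GAGGAA occurred in Csf3r, in Csf2rb2 and as an adjoining pair in Csf2ra, against 23.3% of all windows. The Csf3r match, 86 to 81 bases before the start, lay within the 109 bases inside the annotated gene. Csf2rb2 also held TTCNNNGAA, found in 7.02% of windows, 15 to 7 bases before the start. No match to the C/EBP or AP-1 letters, held by 9.56% and 6.75% of windows, lay in these 4 windows. A match is a string of letters and shows neither binding nor use of the site.

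In wt replicates 1 and 2 and in cko replicate 1 the order of the levels was the same, with Csf2ra first, then Csf2rb, Csf3r, Csf1r, Csf2rb2, Csf1 and Csf3. In cko replicate 2, Csf1 stood above Csf2rb2 and the rest of the order was kept. Neighbours overlapped between libraries within cko for Csf3r with Csf1r and for Csf2rb2 with Csf1, whereas the other neighbours did not overlap within either group. FPKM are per length, so that these levels can be set side by side. In bulk RNA, fewer cells of a type and less RNA per cell cannot be told apart.

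**Figure D1:**
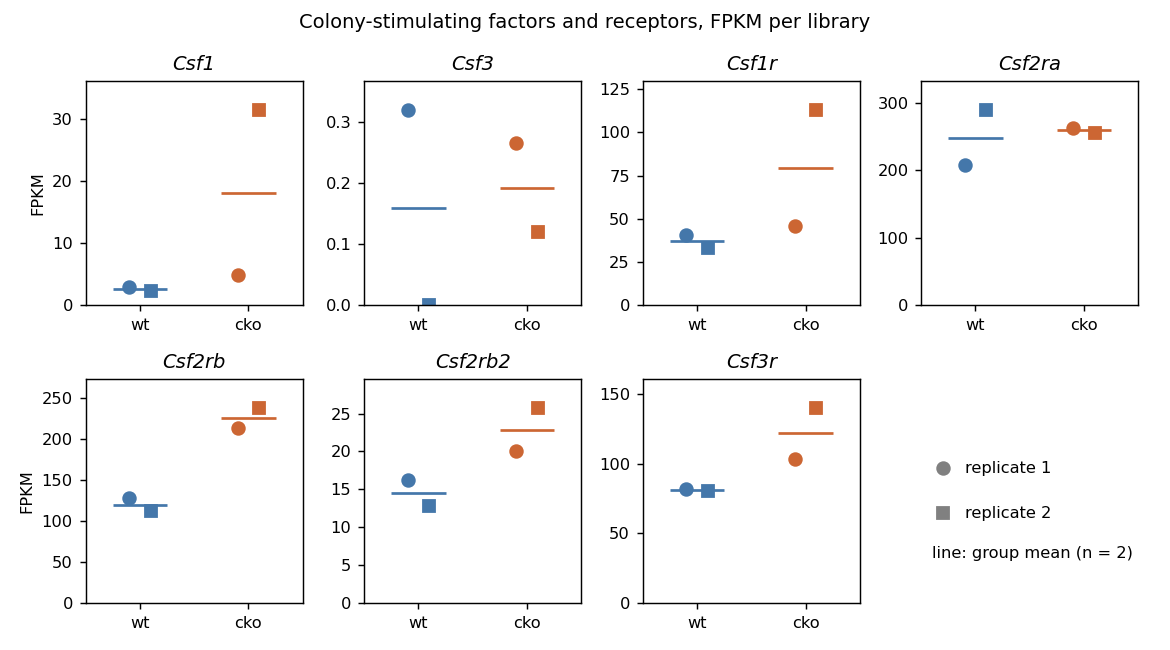
FPKM of each gene in the 4 libraries, on axes that start at 0 and differ between panels, with circles for replicate 1, squares for replicate 2 and lines for group means (n = 2). Both cko libraries lie above both wt libraries for all genes but Csf2ra and Csf3, whose groups overlap. Csf1 and Csf1r are high mainly in cko replicate 2 (31.5 and 113 FPKM). Csf2rb2 and Csf3r are, to a lesser degree, also higher there than in cko replicate 1.

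Groups were compared with limma on log2(FPKM + 1) over the 10779 genes whose mean reached 1 FPKM, which 6 of the 7 genes passed (all but Csf3). On this scale the difference of a gene with few FPKM is understated. At |log2FC| of at least 1 with an adjusted p under 0.05, 0 genes passed in all (0% of those tested), and 1768 genes had an unadjusted p under 0.05. By voom on recovered reads 2 genes passed, neither of them one of these 7. By the looser rule of |log2FC| above 1 with unadjusted p under 0.01, 0 of the 6 passed, where 1.88% of all tested genes were called higher and 0.408% lower. An unadjusted p under 0.05 with a higher level in cko was found for 4 of the 6 and a lower one for 0, against 11.4% and 4.95% of all tested genes. Both cko libraries lay above both wt libraries for 5 of the 6 and below them for 0, against 33.6% and 18% of all tested genes. The median log2 difference was 0.76 over the 6 genes and 0.09 over all tested genes. Without cko replicate 2 the median of the 6 was 0.40, and 1 gene, Csf2rb, had an unadjusted p under 0.05. Without wt replicate 2 it was again Csf2rb alone, and without wt replicate 1 there were 2, Csf2rb and Csf2rb2.

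Csf1, at chr3:107741048-107760469 on the minus strand, encodes M-CSF. In wt replicates 1 and 2 it had 2.92 and 2.23 FPKM, from 342 and 222 reads. In cko replicates 1 and 2 it had 4.87 and 31.5 FPKM, from 482 and 2942 reads. Both cko libraries were above both wt libraries, and cko replicate 2 held 6.47 times the level of cko replicate 1. The 95% exact interval of cko replicate 1, 4.44 to 5.32 FPKM, lay above that of wt replicate 1, 2.61 to 3.24 FPKM, for counting error only. The group means were 2.57 ± 0.482 and 18.2 ± 18.8 FPKM (SD, n = 2 each). The log2 difference was 1.96 with a standard error of 0.76 (adjusted p = 0.294 from limma). Without cko replicate 2 it was 0.72, and without cko replicate 1 it was 3.19 and passed |log2FC| above 1 with an unadjusted p under 0.01.

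Csf3, at chr11:98701263-98703629 on the plus strand, encodes G-CSF. It had 0.319 and 0 FPKM in wt and 0.264 and 0.120 FPKM in cko, from 10, 0, 7 and 3 reads in that order. The groups overlapped, and a count of 0 allows up to 0.113 FPKM in wt replicate 2 at 3 reads. Csf3 fell under the filter and was not tested, and a difference between groups was not detectable at this depth.

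Csf1r, the M-CSF receptor, lies at chr18:61105572-61132149 on the plus strand. It had 40.9 and 33.0 FPKM in wt and 45.6 and 113 FPKM in cko, from 3032 to 9753 reads. Both cko libraries were above both wt libraries, but cko replicate 1 exceeded wt replicate 1 by less than the wt libraries differed from each other, and cko replicate 2 held 2.47 times its level. The log2 difference was 0.95 (standard error 0.42, adjusted p = 0.334 from limma), with a 95% interval from -0.09 to 1.99. Without cko replicate 2 it was 0.31, and without cko replicate 1 it was 1.59 and passed the unadjusted threshold. Hmgxb3, on the opposite strand, overlaps the Csf1r row and had at most 3.32 FPKM.

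Csf1 and Csf1r were also the 2 of these genes that set the cko libraries farthest apart. The gap between cko replicates 2 and 1 was 2.47 for Csf1 and 1.29 for Csf1r on the log2 scale, above 99.7% and 98.0% of all tested genes, where the median absolute gap was 0.229. For the other 4 tested genes it lay between -0.04 and 0.43.

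Csf2ra, the specific chain of the GM-CSF receptor, lies at chr19:61224402-61228418 on the minus strand. It was the highest of the 7 in every library, with 208 and 289 FPKM in wt and 263 and 255 FPKM in cko. Both cko libraries fell between the wt libraries. The log2 difference was 0.08 (standard error 0.19, adjusted p = 0.858 from limma), with a 95% interval from -0.39 to 0.56, and its sign turned under median-of-ratios rescaling (-0.026), under quantile normalization (-0.085) and without wt replicate 1 (-0.16).

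Csf2rb, the common beta chain, had 127 and 112 FPKM in wt and 213 and 238 FPKM in cko, from 10050 to 20026 reads. Both cko libraries stood well above both wt libraries, and each pair of replicates lay close, with means of 120 ± 10.8 and 225 ± 17.1 FPKM (SD, n = 2 each). The log2 difference was 0.91 (standard error 0.15, unadjusted p = 0.00105, adjusted p = 0.183 from limma), with a 95% interval from 0.54 to 1.27. It was 0.83 without cko replicate 2 and stayed between 0.82 and 1.0 as each library was left out. Without wt replicate 1 it was just above 1 and passed the unadjusted threshold. With erythroid and hepatocyte genes removed and the rest rescaled to one total it was 1.12 and passed the unadjusted threshold, while the median of all tested genes moved to 0.27. Relative to that median it was 0.85, against 0.82 with all genes kept.

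Csf2rb2, the IL-3 beta chain, had 16.2 and 12.8 FPKM in wt and 19.99 and 25.7 FPKM in cko. Both cko libraries were above both wt libraries. The log2 difference was 0.62 (standard error 0.20, adjusted p = 0.251 from limma). It ranged from 0.44 to 0.79 as each library was left out and was lowest without cko replicate 2. Csf2rb2 made up 11.3% and 10.3% of the summed FPKM of both beta chains in wt and 8.57% and 9.77% in cko. The sum was 144 and 125 FPKM in wt and 233 and 263 FPKM in cko, a log2 difference of 0.88 (exact two-sided permutation p = 0.33, the smallest that 2 against 2 libraries allow). The sum does not depend on how shared reads were split between the genes, although it would on reads that were dropped or counted for both. For each FPKM of the beta chains there were 1.45 and 2.31 FPKM of Csf2ra in wt and 1.13 and 0.969 in cko.

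Csf3r, the G-CSF receptor, lies at chr4:126024550-126044440 on the plus strand. It had 81.5 and 80.3 FPKM in wt and 104 and 140 FPKM in cko. Both cko libraries were above both wt libraries, and the wt libraries differed by 1.21 FPKM. The log2 difference was 0.57 (standard error 0.18, unadjusted p = 0.0228, adjusted p = 0.251 from limma). It ranged from 0.35 to 0.78 as each library was left out and was again lowest without cko replicate 2.

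**Figure D2:**
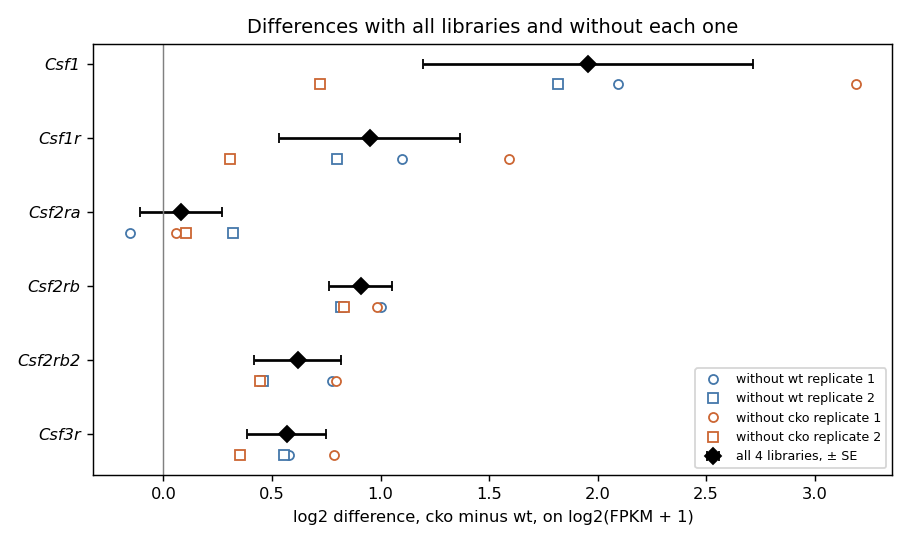
Log2 difference, cko minus wt on log2(FPKM + 1), of the 6 tested genes, with black diamonds for all 4 libraries (bars are standard errors) and open symbols for the fit without 1 library. Csf1 and Csf1r move with either cko library, from 0.72 to 3.19 and from 0.31 to 1.59, while Csf2rb stays between 0.82 and 1.0.

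Csf3r is best known from granulocytes and Csf1r from monocytes and macrophages. Their ratio within a library is free of scaling between libraries. Csf3r stood at 1.99 and 2.44 times the FPKM of Csf1r in wt and at 2.27 and 1.24 times in cko. The groups overlapped, with a difference of -0.38 in the log2 ratio (exact two-sided permutation p = 0.667). Without cko replicate 2 the sign turned (0.046).

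The marker lists of these cells were read beside the receptors. The summed FPKM of 10 macrophage markers were 392 and 266 in wt and 269 and 452 in cko, and those of 6 monocyte markers were 462 and 449 in wt and 449 and 506 in cko. Both sums were highest in cko replicate 2, the library with the highest Csf1r, but the markers were split. Adgre1, C1qa, C1qc, Cd5l and Marco were highest in cko replicate 2, and C1qb, Vsig4, Clec4f, Timd4 and Mrc1 in wt replicate 1. Marco alone had 94.0 FPKM in cko replicate 2 against 44.0 FPKM in wt replicate 1. Ly6c2, the largest part of the monocyte sum, was lowest in cko replicate 2 (315 FPKM), where the other monocyte markers were highest. Both cko libraries were above both wt libraries for 1 of the 10 macrophage and 2 of the 6 monocyte markers, against 33.6% of all tested genes. The median monocyte marker was 0.0054 above the wt mean in cko replicate 1 and 0.72 in cko replicate 2 on the log2 scale. The sum of 10 neutrophil markers was 76494 and 76174 FPKM in wt and 68691 and 53429 FPKM in cko. It was lowest where Csf3r was highest. Most of this sum came from Ngp, Camp and Ltf, with 43779, 19301 and 9931 FPKM in wt replicate 1. Of the 10 markers, 5 were lower and 3 higher in both cko libraries, against 18% and 33.6% of all tested genes. Those lower were Ly6g, Camp, Ltf, Retnlg and Mmp8. Those higher were Cxcr2, with 199 and 179 FPKM in wt and 230 and 317 FPKM in cko, Elane and Prtn3. Elane had 617 and 646 FPKM in wt and 945 and 749 FPKM in cko, and Prtn3 267 and 250 FPKM in wt and 538 and 450 FPKM in cko. Erythroid markers summed to 3709 and 2330 FPKM in wt and 1414 and 1513 FPKM in cko, with 7 of 8 lower in both cko libraries where 18% of all tested genes were, and the 10 highest genes of all took 42.3% to 46.6% of the FPKM in wt and 29.4% to 33.1% in cko. The part of these shifts in the receptor differences was not tested.

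**Figure D3:**
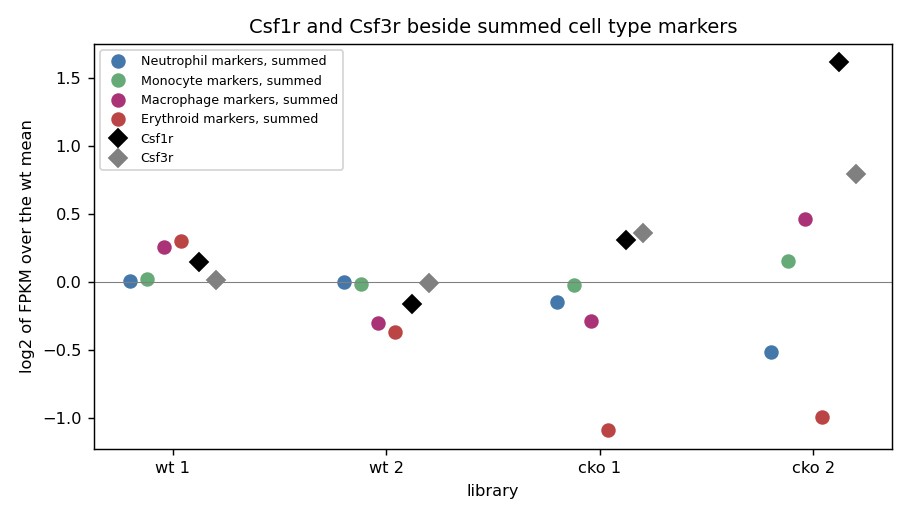
Log2 of FPKM over the wt mean for Csf1r, Csf3r (diamonds) and the summed markers of 4 cell types (circles) in each library, offset sideways for legibility. Csf1r in cko replicate 2 stands above the macrophage and monocyte sums of the same library. The neutrophil sum, mostly of Ngp, Camp and Ltf, is lowest in that library while Csf3r is highest.

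Other ligands and receptors of these families were low or close to undetected. Csf2 (GM-CSF) had 0 reads in both wt libraries and cko replicate 1 and 1 read in cko replicate 2, and Il34 had 2 reads, both in cko replicate 1. A count of 0 allows up to 0.20 FPKM of Csf2 and up to 0.0866 FPKM of Il34. Il3ra, the specific chain of the IL-3 receptor, had 5.6 and 7.06 FPKM in wt and 6.35 and 6.27 FPKM in cko, a log2 difference of 0.0034. Kit, the stem cell factor receptor of progenitors and mast cells, had 4.33 and 3.85 FPKM in wt and 2.19 and 2.87 FPKM in cko, below wt in both libraries (log2 difference -0.53, standard error 0.20, adjusted p = 0.288 from limma). Il5ra had 0.227 and 0.357 FPKM in wt and 0.119 and 0 FPKM in cko, Kitl 0.731 to 1.16 FPKM, Flt3 0.198 to 0.693 FPKM and Flt3l 0.525 to 0.963 FPKM over all libraries. Of this list only Kit and Il3ra passed the filter, and Il3 and Il5 had no row that was analysed here.

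Of 26 genes for kinases, adaptors and transducers of these receptors, 24 were tested and 0 passed either threshold. At an unadjusted p under 0.05, 8 were higher, 0 lower and 16 neither, against 11.4% higher and 4.95% lower over all tested genes. The median log2 difference was 0.32, against 0.09 over all tested genes. Gab2, an adaptor of beta chain signals, had 2.94 and 2.67 FPKM in wt and 5.93 and 6.80 FPKM in cko (log2 difference 0.95, standard error 0.18). As in Csf2rb, both cko libraries were above both wt libraries.

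Of 12 genes for brakes on these receptors, 10 were tested, of which 5 were higher, 0 lower and 5 neither at an unadjusted p under 0.05 (11.4% higher and 4.95% lower over all tested genes), with a median of 0.49. Socs3, a feedback inhibitor of the G-CSF receptor, had 37.1 and 16.2 FPKM in wt and 65.3 and 216 FPKM in cko (log2 difference 2.23, standard error 0.63, limma adjusted p = 0.228), and 1.37 without cko replicate 2. Socs1, which inhibits JAK kinases, had 8.19 and 8.14 FPKM in wt and 11.9 and 26.8 FPKM in cko, with a log2 difference of 1.04 (standard error 0.36), and 0.49 without cko replicate 2. Both were highest in cko replicate 2.

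Of 8 transcription factors known to act on the receptor genes 6 were tested, with 2 higher, 0 lower and 4 neither at an unadjusted p under 0.05, beside 11.4% and 4.95% of all tested genes. Spi1, which encodes PU.1, had 77.3 and 126 FPKM in wt and 264 and 145 FPKM in cko (log2 difference 0.98, standard error 0.36), and was highest in cko replicate 1, unlike Csf1r. Ets2 had 17.3 and 18.0 FPKM in wt and 28.0 and 60.5 FPKM in cko (log2 difference 1.18, standard error 0.35), and a difference of 0.64 without cko replicate 2. Cebpa and Cebpb stayed under the filter, with 21 to 54 and 16 to 38 reads, and both rows overlap a gene on the other strand.

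Of 14 target genes of these cytokines, all tested, 1 passed |log2FC| above 1 with an unadjusted p under 0.01, where 1.88% of all tested genes were higher. At an unadjusted p under 0.05 there were 3 higher, 0 lower and 11 neither, against 11.4% and 4.95% of all tested genes. The gene past the first rule was Mcl1, a survival gene of the BCL2 family, with 44.0 and 43.8 FPKM in wt and 75.4 and 120 FPKM in cko (log2 difference 1.10, standard error 0.24, limma adjusted p = 0.210), and 0.76 without cko replicate 2. Bcl2a1a, another survival gene, whose near copies can share its reads, had 13.4 and 5.25 FPKM in wt and 12.3 and 86.7 FPKM in cko (log2 difference 1.85, standard error 0.90). The groups of Bcl2a1a overlapped, and the difference was 0.49 without cko replicate 2. Pim1, a kinase induced by STAT5, had 5.84 and 23.9 FPKM in wt and 79.4 and 24.0 FPKM in cko (log2 difference 1.78, standard error 0.77), so that here cko replicate 1 stood apart. Relative to the wt mean the median of the 14 was 0.24 in cko replicate 1 and 1.45 in cko replicate 2, against 0.32 and 0.32 for the 24 kinases, adaptors and transducers. The median of all tested genes was 0.09 in each cko library.

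**Figure D4:**
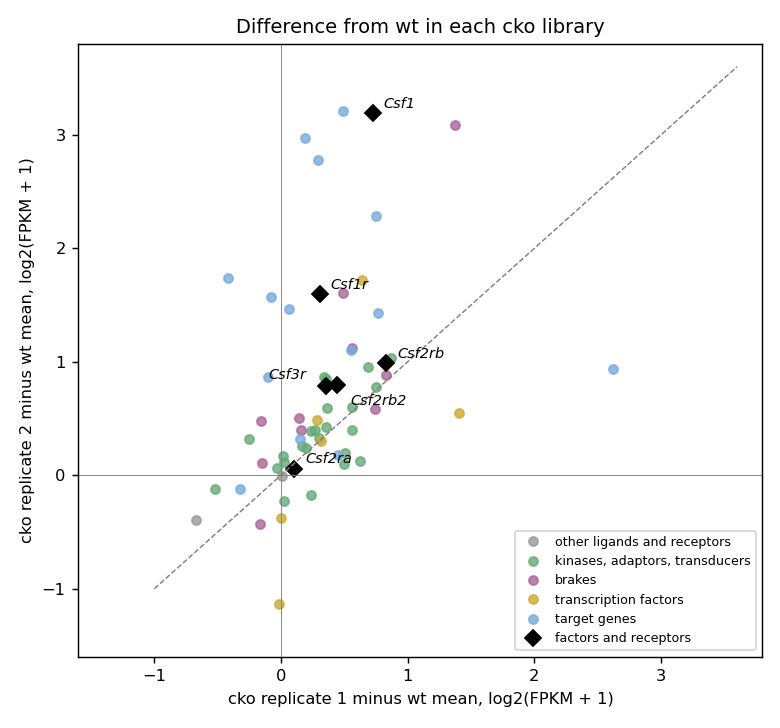
Difference from the wt mean on log2(FPKM + 1) in cko replicate 1 (horizontal) and cko replicate 2 (vertical) for the 6 tested factors and receptors (diamonds) and the genes of 5 related lists (circles), with a dashed line of equal difference. Csf2rb lies near the line (0.83 and 0.99), while Csf1 (0.72 and 3.19), Csf1r (0.31 and 1.59) and many target genes lie above it.

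The pattern of each gene over the 4 libraries was set beside that of 9154 protein-coding genes by the Euclidean distance of centred log2(FPKM + 1). Nearest to Csf1 were Gbp2, Cxcl1 and Ly6i, at distances of 0.254, 0.448 and 0.485. Gbp2, an interferon-induced GTPase, had 6.75 and 6.42 FPKM in wt and 13.4 and 79.0 FPKM in cko. Cxcl1, a neutrophil chemokine, had 0.408 and 0.142 FPKM in wt and 0.968 and 6.96 FPKM in cko. Themis2, Map3k8 and Treml4 were nearest to Csf1r, at 0.0619 to 0.0743. Around Csf2rb were Gab2, Nt5dc2 and Emd, at 0.0721 to 0.0804, so that the adaptor above was also the gene of the nearest pattern. For Csf2rb2 these were Gcnt2, Manf and Twf1, for Csf3r Kcmf1, H2-DMa and Zfp189, and for Csf2ra Nacc1, Higd1a and Fbxl18. With 4 libraries many genes share a shape, and these distances are a description.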

How the data were processed

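Total RNA of myeloid cells was sequenced, with 2 wt and 2 cko libraries grouped by their labels. The authors deposited 1 FPKM value per gene and library for 24706 genes, without scaling between libraries. The submitters' processing notes name Bowtie2 2.2.3, TopHat2 2.0.12, HTSeq 0.6.0 and mm9, whereas 92.6% of the gene positions in the files are identical to GENCODE M21 (GRCm38), and positions are given as GRCm38. Strand and treatment of multiply mapped reads are not given in the sources used here. Library totals were recovered from single-exon genes, of whose values 99.9% to 100.0% came out whole within 0.01 of a read. Reads per gene came from annotated lengths where these gave whole reads within 0.05 (91.5% of genes), and otherwise from the shortest length that gave whole reads in each library, as for Csf1r, Csf2ra, Csf2rb and Csf2rb2.

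Groups were compared on log2(FPKM + 1) by lmFit and trended eBayes of limma 3.58.1 (R 4.3.3), without covariates, over genes whose mean reached 1 FPKM, with Benjamini-Hochberg adjustment over all tested genes, and single derived values with exact permutation tests. The fit was tested on simulated reads. Alternatives were other pseudocounts, filters and scalings, voom on recovered reads, a replicate block, and leaving out each library. The 7 genes, the related lists and the marker lists were chosen with earlier results of these data known. Named beside them were list genes past |log2FC| above 1 with an unadjusted p under 0.01, the 2 with the largest difference in each list, other ligands and receptors, and the 3 nearest patterns, with marker genes, Pdcd1 and Lyz2 as checks. A gene that this rule names is not reported here. Intervals are 95% Clopper-Pearson intervals and, like the limit for a count of 0 (3 reads), cover counting error only. Promoters came from RefSeq (GRCm38.p6) and coding sequences from GENCODE M21. Motifs were chosen after the values were seen.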

Additional observations from a re-analysis of the deposited data

How the results depend on the processing

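Of 90 differences of the 6 tested genes under the alternatives, 83 kept their direction and their side of |log2FC| above 1 with an unadjusted p under 0.01, 4 newly passed it and 3 changed sign. In the other filters, the fit without a trend and the replicate blocks, each difference stayed as it was by construction. There the sign could not change, and for a gene with a difference under 1 neither could the side. The crossed replicate block among them was chosen after seeing the data. The ratio and the sum cannot pass a threshold with 2 against 2 libraries. The count of 4 genes at an unadjusted p under 0.05 was 3 without a filter, after median-of-ratios rescaling, after quantile normalization and without a trend (Csf1 lost) and with a replicate block (Csf2rb2 lost), and 1 to 5 as each library was left out. Csf2rb passed with erythroid and hepatocyte genes removed and the rest rescaled to one total (1.12). This raised the count of passing genes among the 7 from 0 to 1. In wt replicate 1 the removed erythroid and hepatocyte genes summed to 3709 and 60.3 FPKM. All genes summed to 491983 and 457127 FPKM in wt and to 412777.5 and 403900 FPKM in cko. Removal and rescaling were not tested apart. Csf2ra changed sign after median-of-ratios rescaling (-0.026) and quantile normalization (-0.085). As each library was left out in turn, the difference ranged from 0.72 to 3.19 for Csf1, from 0.31 to 1.59 for Csf1r, from -0.16 to 0.32 for Csf2ra and from 0.82 to 1.0 for Csf2rb, the log2 ratio of Csf3r to Csf1r from -0.81 to 0.046, and the count of passing genes among the 7 from 0 to 2. The cause was not tested.

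Over all genes, 203 higher and 44 lower genes passed the unadjusted threshold (247). After median-of-ratios rescaling they were 146 higher and 65 lower, and after quantile normalization 150 and 79. With erythroid and hepatocyte genes removed and the rest rescaled to one total they were 351 and 17. With the filter raised to 5 FPKM, which tests fewer genes, the count in all was 126 rather than 247. This count ranged from 136 without cko replicate 2 to 472 without cko replicate 1, and was 151 without wt replicate 1. At the adjusted threshold 0 genes passed, and 2 by voom on recovered reads. A replicate block gave 258 genes past the unadjusted threshold, and none of the 7 genes newly passed it. The labels do not say that numbers pair the libraries, and deviations of same-numbered libraries from their group means correlated at -0.16 across genes. With crossed numbers, chosen after seeing the data, 363 genes passed the unadjusted threshold and 1 the adjusted one. Csf3 had no value by voom or with a minimum mean, and its 0 to 10 reads per library limit what can be said of it.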
